A study of Rattus norvegicus with 2 samples.

Results

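The miRNAs described here were miR-199a, miR-199b and miR-214, chosen by name and taken with both of their arms. Of the 635 miRNA rows in the count table, 6 carried these names, mmu-miR-199a-5p, mmu-miR-199b-5p, mmu-miR-199a-3p, mmu-miR-199b-3p, mmu-miR-214-3p and mmu-miR-214-5p. Of the 6, 5 were distinct, because both 3p rows of miR-199 had equal counts and were counted once, as miR-199-3p. The small RNA came from exosomes in the medium of primary cardiomyocytes from the hearts of Wistar rats aged 1 to 2 days. The cells were starved of serum and then kept for 48 h without angiotensin II (Ang II), which gave NC-Exo, or with Ang II at 1 μmol/L to induce hypertrophy, which gave HC-Exo. Both cultures had been enriched for cardiomyocytes by differential adhesion and carried 5-bromo-2-deoxyuridine, and each gave 1 library. What differed between the groups therefore has no replicate check, and a change in the number of vesicles from any cell type cannot be told apart from a change in the miRNA that each vesicle held.

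Each miRNA hairpin is cut into an arm from its 5′ side (5p) and an arm from its 3′ side (3p), and usually 1 of the arms is kept by Argonaute and pairs with target mRNAs through its seed, bases 2 to 8. A miR-199a gene and the miR-214 gene are transcribed together as a long RNA, Dnm3os, that runs antisense to an intron of the dynamin gene Dnm3, and the other miR-199 genes lie in further dynamin genes. This transcript is known from mesenchymal cells, where the factor Twist1 drives it, and in the heart its miRNAs are studied in fibroblasts and in myocytes under stress. miR-199a-5p is known to repress Hif1a and Sirt1 in cardiomyocytes, miR-199a-3p to favour cardiomyocyte proliferation, and miR-214-3p to repress the sodium and calcium exchanger Ncx1.

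The sequences are shown because each of the 4 arms carries a seed of its own and so pairs with a different set of targets. The rat RefSeq list (GRCr8) held 4 of the 6 names, printed 5′ to 3′ with the seed in capitals.
miR-199a-5p: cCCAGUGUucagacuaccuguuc
miR-199a-3p: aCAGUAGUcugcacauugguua
miR-214-3p: aCAGCAGGcacagacaggcag
miR-214-5p: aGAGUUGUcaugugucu
The table's names carry the mouse prefix, so the counted sequences may differ from these rat ones, and for miR-214-5p they may come from another place in the same side of the hairpin. All 4 lie on the plus strand of chromosome 13 inside Dnm3, miR-199a-5p at chr13:77116255-77116277, miR-199a-3p at chr13:77116294-77116315, miR-214-5p at chr13:77121656-77121672 and miR-214-3p at chr13:77121713-77121733. A stretch of 5340 bases separates the end of miR-199a-3p from the start of miR-214-5p. Each of the 4 seeds occurred in 1 of the 693 mature names of that list, its own. As the list lacks both arms of miR-199b, a seed shared with them could not be seen. The 3p arms of miR-199a and miR-214 begin alike, with 6 of their first 8 bases equal, and counted from 1 at the 5′ end the seed of miR-214-3p differs from that of miR-199a-3p by U5C and U8G. Over the 21 bases of miR-214-3p, 8 positions are equal. The bases G and C make up 61.9% of miR-214-3p, 52.2% of miR-199a-5p and 40.9% of miR-199a-3p.
The hairpin of miR-214 (chr13:77121645-77121752, plus strand), is printed with both RefSeq arms in capitals because nearly all of its reads came from the second of them.
Mir214: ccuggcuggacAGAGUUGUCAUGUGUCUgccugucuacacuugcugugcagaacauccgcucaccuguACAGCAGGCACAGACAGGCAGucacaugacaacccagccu

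The miRNA rows summed to 102608 reads for NC-Exo and 133155 for HC-Exo. Counts were scaled to 1000000 miRNA reads (RPM), where 1 read was worth 9.75 RPM in NC-Exo and 7.51 RPM in HC-Exo. A library with 3 reads or fewer was treated as being at or under the level of 3 reads, 29.2 RPM in NC-Exo and 22.5 RPM in HC-Exo. The 6 cardiomyocyte miRNAs listed for a check of the source, among them miR-1a-3p, miR-133a-3p and miR-499-5p, had reads in both libraries and held 16.9% of the reads of NC-Exo and 18.4% of HC-Exo. Most of this was miR-1a-3p, with 16.2% of NC-Exo and 17.5% of HC-Exo, whereas miR-499-5p had only 10 and 35 reads. For comparison, the 5 distinct rows of miR-199 and miR-214 took up 1.53% of NC-Exo, with a 95% Clopper-Pearson interval from 1.46 to 1.61%, and 1.25% of HC-Exo, from 1.19 to 1.31%. Intervals and the level of 3 reads cover counting error only, because each group has 1 library. They take reads as independent, and as PCR copies are not independent molecules, they may be too narrow even for that error.

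The arms of miR-199 were higher in HC-Exo than in NC-Exo, and miR-214-3p was lower. The 5p arms of miR-199 differed most between the libraries, by 2.46 times for miR-199a-5p and miR-199b-5p together, their shared 3p arm by 1.33 times, and miR-214-3p by a ratio of 0.710. As the arms of miR-199 were much less abundant than miR-214-3p, the sum of all 5 rows followed miR-214-3p and gave a log2 ratio (HC-Exo over NC-Exo, as throughout) of -0.30 (95% exact interval -0.40 to -0.20).

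**Figure D1:**
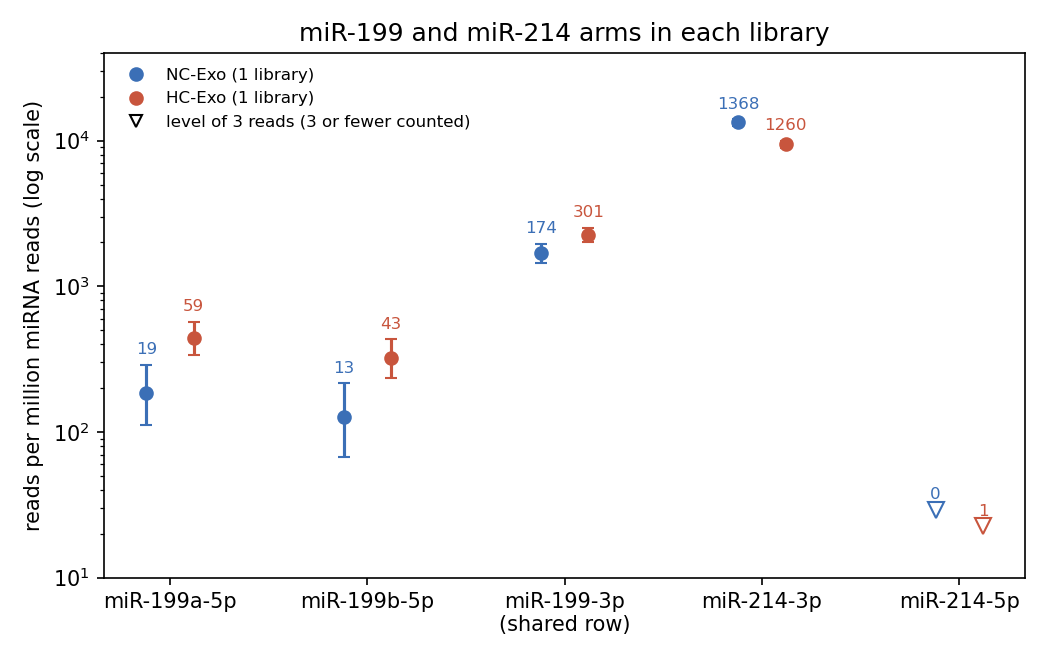
Level of each arm in NC-Exo (blue) and HC-Exo (red), in RPM on a log axis, with 95% Clopper-Pearson intervals for counting error and the number of reads above each point. Open triangles mark the level of 3 reads where 3 or fewer were counted. The log2 ratio intervals of the 5p arms of miR-199, of miR-199-3p and of miR-214-3p did not hold 0. Such intervals were common. Of 80 miRNAs with at least 300 reads in all, 30 had one above 0 and 21 one below. Of 119 with 30 to 120 reads, 20 had one above 0 and 10 one below. miR-214-3p lies above all arms of miR-199 in both libraries.

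Of the guide arms, miR-214-3p was the most abundant. It had 1368 reads in NC-Exo, which is 13332 RPM (12639 to 14053), and 1260 reads in HC-Exo, which is 9463 RPM (8950 to 9997). It was the miRNA of rank 16 in NC-Exo and of rank 20 in HC-Exo. HC-Exo had fewer reads of miR-214-3p although it had more miRNA reads in total. Given the sum of its reads, the two-sided exact binomial test of these libraries gave a log2 ratio of -0.49 (95% exact interval -0.61 to -0.38, Benjamini-Hochberg adjusted p = 2.91e-16 over the 340 rows that had 10 or more reads in all). The test compares these 2 libraries and not the conditions. Among the 41 miRNAs with 1000 or more reads in all, whose median log2 ratio was 0.04, that of miR-214-3p was the lowest. The next lowest there was close to it, miR-126a-5p, an endothelial miRNA, also with -0.49, whereas its other arm miR-126a-3p had 0.21 (0.04 to 0.38). Among the 80 miRNAs with at least 300 reads in all, miR-214-3p was at place 6 from the lowest, and the lowest had -0.77. When edgeR's exact test was given a biological coefficient of variation of 0.1, set by assumption, the adjusted p of miR-214-3p was 0.240.

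The 5p arms of miR-199 were read seldom. miR-199a-5p had 19 reads in NC-Exo, 185 RPM (111 to 289), and 59 reads in HC-Exo, 443 RPM (337 to 572). Its level in HC-Exo lay above the interval of NC-Exo. The log2 ratio stood at 1.26 (0.49 to 2.09, adjusted p = 0.00466 in the exact binomial test). miR-199b-5p, which is made from a separate gene, had 13 reads in NC-Exo, 127 RPM (67.5 to 217), and 43 reads in HC-Exo, 323 RPM (234 to 435). The log2 ratio stood at 1.35 here (0.43 to 2.37, adjusted p = 0.0127 in the exact binomial test). Both 5p arms were thus higher in HC-Exo. The log2 ratio of miR-199a-5p minus that of miR-199b-5p was -0.09, with an interval from -1.39 to 1.17 that allows more than a 2-fold difference in either direction. miR-199a-5p made up 59.4% of the miR-199 5p reads in NC-Exo (40.6 to 76.3%) and 57.8% in HC-Exo (47.7 to 67.6%). These near-identical paralogs may share reads, and how the authors assigned such reads is not given in the sources used here. Their values may therefore not be independent of each other.

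The shared 3p arm, miR-199-3p, had 174 reads in NC-Exo, 1696 RPM (1453 to 1967), and 301 reads in HC-Exo, 2261 RPM (2013 to 2531). Reads of this arm cannot be assigned to the miR-199a or the miR-199b genes, since the table gives them under both names. It was of rank 67 in NC-Exo and of rank 54 in HC-Exo, and its log2 ratio stood at 0.41 (0.14 to 0.69, adjusted p = 0.0161 in the exact binomial test). This difference depended on the scaling of the libraries, and by the exact binomial test the adjusted p-value was 0.0549 with TMM factors and 0.127 with upper-quartile factors, where the log2 ratio fell to 0.29. The other arm of miR-214, miR-214-5p, had 0 reads in NC-Exo and 1 read in HC-Exo. Both counts are under the level of 3 reads, so no ratio is given.

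To be called, a miRNA needed both an adjusted p-value below 0.05 and a log2 ratio of 1 or more, or of -1 or less. Of the 5 distinct rows, 4 had enough reads to be tested and 2 were called, miR-199a-5p and miR-199b-5p, both higher in HC-Exo. Over all 340 rows tested, 16 were called, which is 4.71%, with 9 (2.65%) higher and 7 (2.06%) lower in HC-Exo. These 340 hold both equal 3p rows of miR-199 and other repeated rows. By the limit on the log2 ratio alone, which uses no p-value, the same 2 rows were past it, against 53 of 340 rows, or 15.6%, with 39 (11.5%) of these higher in HC-Exo. Of the 119 miRNAs with 30 to 120 reads in all, the depth at which both 5p arms lie, 16 had a log2 ratio of at least 1 and 4 had one of -1 or lower. Ranked from the highest log2 ratio of the 340, miR-199b-5p was at place 22, miR-199a-5p at place 25 and miR-199-3p at place 104, and miR-214-3p was at place 61 from the lowest. By the adjusted p-value alone, with no limit on size, all 4 tested rows passed, 3 of them higher and 1 lower, against 76 of 340, or 22.4%, with 47 (13.8%) higher and 29 (8.53%) lower. In edgeR's exact test, run with coefficients of variation of 0.1, 0.2 and 0.4 set by assumption, none of these rows was called, nor were any of the 340 rows (0 calls). With the p-value left unadjusted, that test passed 3 of these rows at 0.1, among them miR-214-3p, 2 at 0.2 and 0 at 0.4. With the limit on size kept as well, 2, 2 and 0 passed. How many of all 340 rows passed without adjustment was not counted, so these counts have no background to be read against.

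**Figure D2:**
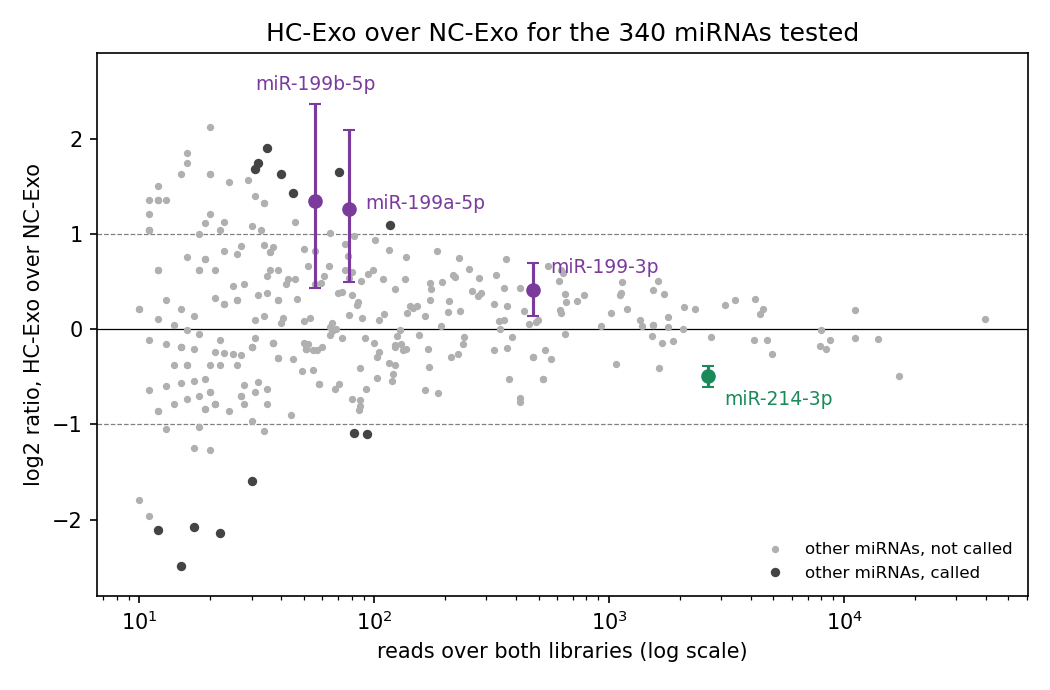
Log2 ratio, HC-Exo over NC-Exo, against the summed reads (log axis) for the 340 rows tested, with dashed lines at a log2 ratio of 1 and -1. Each row is 1 point, except that both equal 3p rows of miR-199 are drawn as 1. Bars, drawn for miR-199 and miR-214-3p only, are 95% exact intervals for counting error. The 5p arms of miR-199 lie above the upper line, miR-199-3p lies between 0 and that line, and miR-214-3p lies at -0.49, at the lower edge of the abundant miRNAs.

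The balance of the arms was then compared, which does not depend on the library totals. In NC-Exo, 32 reads of both miR-199 5p arms stood against 174 of the shared 3p arm, a 5p share of 15.5% (95% Clopper-Pearson limits 10.9 and 21.2%). In HC-Exo, 102 reads stood against 301, a 5p share of 25.3% (21.1 to 29.9%). The 3p arm was thus the more abundant in both libraries, by 5.44 reads for each 5p read in NC-Exo and by 2.95 in HC-Exo. The log2 odds of 5p against 3p were higher in HC-Exo by 0.88 (95% exact interval 0.23 to 1.56). With adjustment over the 44 arm pairs of the table that had at least 20 reads in each arm, this change did not pass (Fisher's exact test, adjusted p = 0.0515). It passed when only the pairs with at least 50 reads in each arm were tested (Fisher's exact test, adjusted p = 0.0269). The unadjusted p-value of Fisher's exact test was 0.00702 in both cases, so only the set of pairs in the adjustment differed. How many pairs passed at 50 reads was not counted. For miR-199a-5p alone the change was 0.84 (0.02 to 1.72) and for miR-199b-5p alone 0.94 (-0.04 to 1.99), and neither passed (Fisher's exact test, adjusted p = 0.126 and 0.170). With 5 reads added to each arm it was 0.76 and did not pass either (Fisher's exact test, adjusted p = 0.0797). Of the 44 pairs, 4 passed at 20 reads, which is 9.09%, 1 of them (2.27%) with a higher 5p share in HC-Exo, and the median change of the log2 odds was 0.12. They were miR-126a, miR-28a and miR-423 with a lower 5p share in HC-Exo and miR-351 with a higher one. By the size of the change, miR-199 was at place 12 of 44.

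miR-214 gave nearly all of its reads from the 3p arm. Its 5p arm had 0 of 1368 reads in NC-Exo, which by the level of 3 reads allows a share of up to 0.219%, with a 95% Clopper-Pearson limit of 0.269%. In HC-Exo it had 1 of 1261 reads, 0.0793% (95% Clopper-Pearson limits 0.00201 and 0.441%). No change of its arm balance was detectable at this depth. Both hairpins therefore favoured the 3p arm, miR-214 more than miR-199, with 5p shares whose intervals do not overlap in either library. In the arm pairs tested, the median 5p share was 52.0% in both libraries, and 5 of the 44 pairs had a 3p share above 90% in both.

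**Figure D3:**
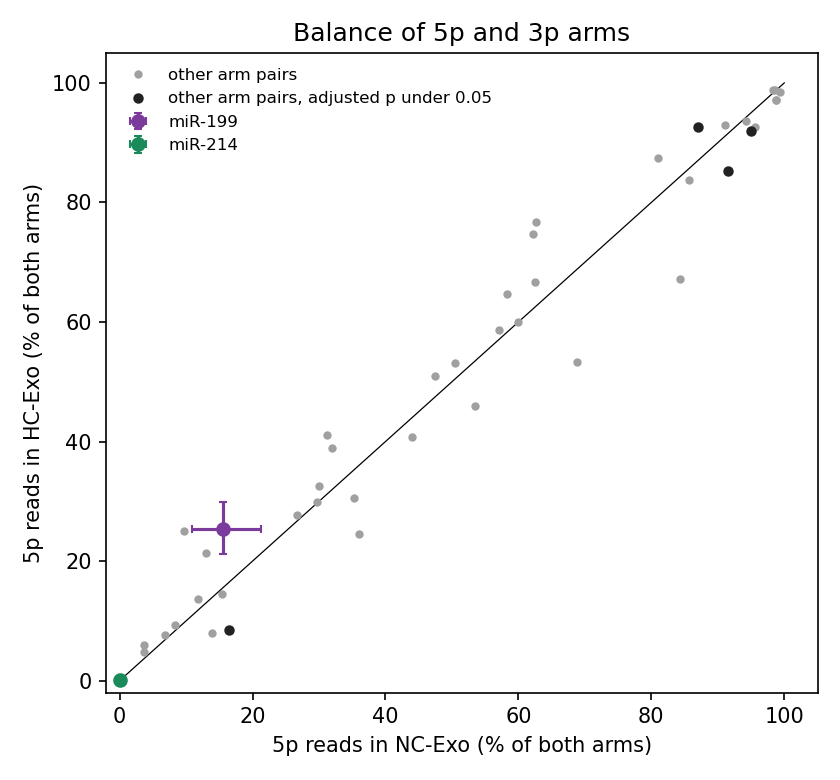
Share of 5p reads among the reads of both arms, with NC-Exo on the horizontal axis (%) and HC-Exo on the vertical axis (%), for the 44 arm pairs tested and for miR-214, with the line of equal shares. Bars are 95% Clopper-Pearson intervals. miR-199 lies above the line, at 15.5% and 25.3%, and miR-214 lies at the origin.

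Although miR-199a and miR-214 share a transcript, miR-199-3p was higher and miR-214-3p lower in HC-Exo. For each read of miR-199-3p, NC-Exo held 7.86 reads of miR-214-3p and HC-Exo held 4.19. The log2 ratio of miR-199-3p was higher than that of miR-214-3p by 0.91 (95% exact interval 0.61 to 1.21), a difference that no scaling of the libraries can change. For the 5p arms together it was higher than that of miR-214-3p by 1.79 (1.19 to 2.42), and 42.8 reads of miR-214-3p for each 5p read in NC-Exo became 12.4 in HC-Exo. miR-199a-5p alone differed from miR-214-3p by 1.75 (0.98 to 2.59), though its reads may also come from a miR-199a gene outside the shared transcript. Of the reads of the 5 rows, the miR-199 arms held 13.1% in NC-Exo (11.5 to 14.9%) and 24.2% in HC-Exo (22.2 to 26.4%). The part of the miR-199 genes outside this transcript in these reads was not tested.

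To place this difference, neighbouring miRNA genes of the RefSeq list, at most 10 kb apart on 1 strand, were compared by the log2 ratio of their more abundant arm. There were 51 such pairs with at least 20 reads in each row, and the median size of the difference was 0.39. miR-199-3p and miR-214-3p were at place 11 of 51 by size, and their interval was 1 of 16 that did not hold 0. The log2 ratios had unlike signs in 16 of the 51 pairs, this pair among them. Of the 10 pairs with a larger difference, the first was miR-337-3p and miR-540-3p with 2.60, on far fewer reads, and the third was miR-212-3p and miR-132-3p with a size of 1.51. The pairs of miR-27a-3p with miR-23a-3p, 0.83, and of miR-27b-3p with miR-23b-3p, 0.77, were close below. Neighbours with unlike ratios were thus found at other loci of the same libraries too, and no test of the place of miR-199 and miR-214 among them was made.

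**Figure D4:**
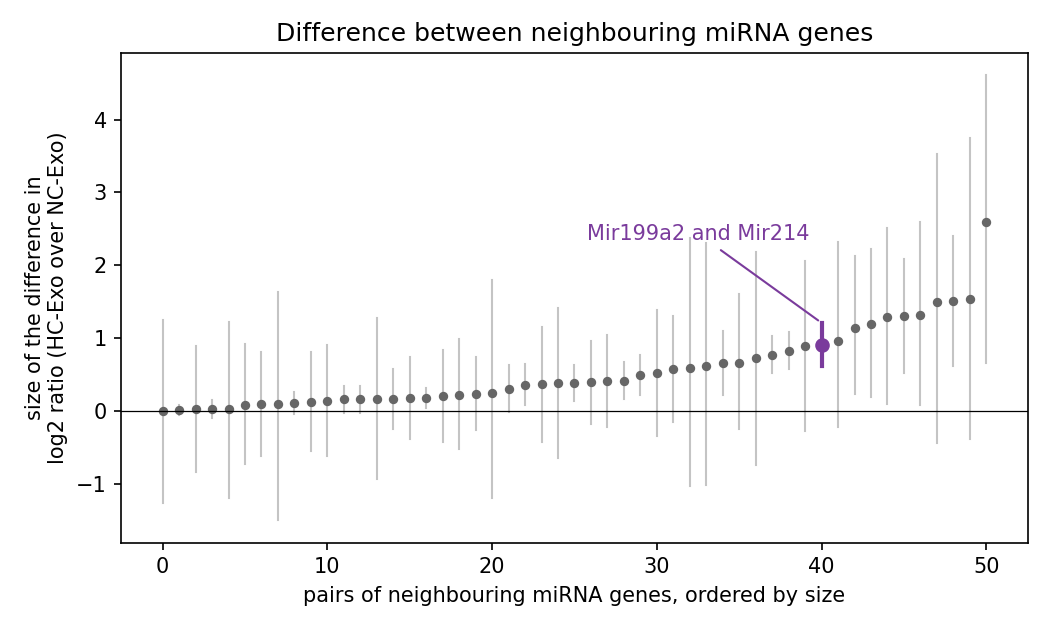
Size of the difference in log2 ratio (HC-Exo over NC-Exo) between the more abundant arms of neighbouring miRNA genes, for 51 pairs in order of size. Bars are 95% exact intervals for counting error. The pair of Mir199a2 and Mir214 is in purple, at 0.91, and its interval lies above 0.

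Other miRNAs linked to mesenchymal cells were set beside these. Of 15 names in a list of such miRNAs, 14 had reads and were tested, 1 was called higher, miR-455-3p with 1.68, and 0 were called lower. Their median log2 ratio was 0.19, against 0.10 for all 340 rows. The most abundant were miR-21a-5p with 0.16, a miRNA known from cardiac fibrosis, miR-143-3p of smooth muscle with 0.31 and miR-125b-5p with 0.22, and all 3 were past an adjusted p-value of 0.05 by the exact binomial test. Of the 14, 4 were past it, all with higher values in HC-Exo, against 47 (13.8%) higher and 29 (8.53%) lower of all 340 rows. In all, 9 of the 14 had log2 ratios above 0, against 191 of the 340 rows. The lowest were -0.67 for miR-10b-5p and -0.62 for miR-152-3p. This list took up 5.26% of NC-Exo and 6.05% of HC-Exo. In a list of 6 cardiomyocyte miRNAs, the median log2 ratio was 0.43 and 1 was called, miR-499-5p, which is encoded in a myosin gene, with 1.43. Of the 6, 4 were past an adjusted p-value of 0.05 in the exact binomial test, all of them higher in HC-Exo. The one-sided count of the mesenchymal list was thus not particular to it. miR-1a-3p, the most abundant miRNA of both libraries, had 0.11, and miR-133a-3p and miR-133b-3p had 0.36 and 0.51. By contrast, miR-208b-3p was slightly lower in HC-Exo, with -0.16 (-0.70 to 0.37). For miR-208a-3p the value was 1.04 (-0.12 to 2.33), and both of these intervals held 0. Of 8 rows of blood miRNAs, 2 of them with equal counts (miR-486a-5p and miR-486b-5p), 6 were tested and 0 were called in the exact binomial test, their log2 ratios running from 0.03 to 0.75, and the highest value was that of miR-223-3p. By the adjusted p-value alone, 1 of these 6, miR-223-3p, was higher and 0 were lower. With the equal rows counted once, the list took up 0.793% of NC-Exo and 0.858% of HC-Exo, most of it miR-486a-5p, followed by miR-150-5p. Of the 2 arms of the endothelial miR-126a, 0 were called, and they took up 9.11% of NC-Exo and 6.68% of HC-Exo. Without the limit on size, miR-126a-5p passed as lower and miR-126a-3p did not pass. The part of any of these cell types in the values of miR-199 and miR-214 was not tested.

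Of 18 other miRNAs linked to cardiac hypertrophy, 17 were tested, and 1 was called higher, miR-499-5p as above, and 1 lower, miR-212-3p with -1.09. Their median log2 ratio was 0.17. The most abundant were miR-24-3p with 0.20, miR-23a-3p with -0.21 and miR-23b-3p with -0.18. By the adjusted p-value alone, 4 of these were higher and 4 lower, against 47 (13.8%) and 29 (8.53%) of all 340 rows. Values on both sides of 0 were thus found in this list as they were between miR-199 and miR-214-3p.

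The miRNAs with the nearest levels in both libraries were searched among the 449 with reads in both, by the distance in log2 RPM over these 2 libraries. The 5p arms of miR-199 together, with 312 RPM in NC-Exo and 766 RPM in HC-Exo, were nearest to miR-494-3p, at a distance of 0.25, followed by miR-145a-3p and miR-223-3p. For miR-199-3p the nearest were let-7j, miR-378a-5p and miR-146b-5p, at distances from 0.22 to 0.26. The nearest to miR-214-3p were let-7f-5p at 0.29, miR-125b-5p at 0.59 and miR-92a-3p at 0.60. Of these 3, let-7f-5p had a log2 ratio of -0.09 and the others had positive ones.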

How the data were processed

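Exosomal RNA was extracted with TRIzol, made into libraries with an Illumina small RNA kit and sequenced. The submitters' processing notes name Bowtie2 and the mouse builds mm9 and GRCm38. Read trimming and the treatment of reads that match several miRNAs are not given in the sources used here. Raw counts for each mature miRNA were deposited by the authors and fed every test here. They also deposited normalized values, a signal equal to the count times 12.1 in NC-Exo and 9.23 in HC-Exo for all but 1 row, and used here as a further scaling. The table of the authors' own comparison (fold changes, p-values and q-values) was not used.

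Counts were scaled by library totals. Rows with at least 10 reads over both libraries went into an exact binomial test, two-sided, with Benjamini-Hochberg adjustment over all of them, and arm pairs by Fisher's exact test, adjusted over all pairs. With 1 library for each group, edgeR's quasi-likelihood test could not be fitted, and p-values cover counting error only. Rows were paired with the other arm by equal names. The members and lists were chosen with earlier results of these data known, and the comparison of neighbouring genes was added after the counts were seen. Named miRNAs were the members, the called and the 3 most abundant ones of each list, the 3 nearest in level, and the arm pairs past the threshold, and those of the neighbouring genes were picked after their values were seen, as was miR-126a-5p beside miR-214-3p. All cardiomyocyte miRNAs of the list and the lowest mesenchymal ones were named too. Alternatives were other scalings (edgeR 4.0.16, DESeq2 1.42.0, R 4.3.3), filters, pseudocounts of 0.5 and 5 reads and assumed coefficients of variation. Python 3.11.15, scipy 1.17.1, numpy 2.4.6 and pandas 2.3.3 were used. The tests were tried on simulated counts with counting error only, which cannot show how they fare with spread between libraries. Sequences are from RefSeq (GRCr8), which held 312 of the 635 row names.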

Additional observations from a re-analysis of the deposited data

How the results depend on the processing

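No paired analysis was possible because each condition has 1 library, and there was no replicate to leave out.
Across 6 other scalings, which moved every log2 ratio by -0.12 (upper-quartile) to -0.00069 (repeated rows counted once), the log2 ratio ran from 1.14 to 1.26 for miR-199a-5p, from 1.23 to 1.35 for miR-199b-5p and from -0.62 to -0.50 for miR-214-3p, all past an adjusted p-value of 0.05 in the exact binomial test. For miR-199-3p it was 0.35 with TMM, 0.29 with upper-quartile scaling and 0.32 with the median ratio of abundant miRNAs set to 0, none past it (exact binomial test, adjusted p = 0.0549, 0.127 and 0.0903), since these scalings lower all ratios.
With assumed coefficients of variation of 0.1, 0.2 and 0.4, the log2 ratios (1.26, 1.35, 0.41 and -0.49) stayed as they were by construction, but 0 of the 4 tested rows passed and 0 were called, the adjusted p-values of edgeR's exact test running from 0.161 to 1. With the p-value left unadjusted, 2, 2 and 0 rows passed with the limit on size and 3, 2 and 0 without it. The filters and pseudocounts changed no call of these rows.
The 5p share of miR-199 in NC-Exo and HC-Exo was 8.42% and 14.5% with the shared 3p arm counted under both names, 9.84% and 16.4% for miR-199a-5p alone, and 6.95% and 12.5% for miR-199b-5p alone, since these count fewer 5p or more 3p reads. That of miR-214 was 0.363% and 0.472% with 5 reads added to each arm. The change in the log2 odds of miR-199 did not pass for miR-199a-5p alone (0.84), for miR-199b-5p alone (0.94) or with 5 reads added to each arm (0.76), with adjusted p = 0.126, 0.170 and 0.0797 in Fisher's exact test. It stayed at 0.88 and passed (Fisher's exact test, adjusted p = 0.0320 and 0.0269) with the 3p arm counted under both names, which counts reads again, and with at least 50 reads in each arm, where fewer pairs were tested. Without the 10 most abundant miRNAs in the total, the 5 rows held 3.59% and 2.73% of the reads. The differences between miR-199 and miR-214-3p kept their direction and an interval without 0 under the alternatives tried for them, with 5 reads added 1.65 (1.09 to 2.24) for the 5p arms and 0.89 (0.60 to 1.19) for miR-199-3p. At 13 to 59 reads, counting error alone allowed ratios of HC-Exo over NC-Exo from 1.41 to 4.25 for miR-199a-5p and from 1.35 to 5.17 for miR-199b-5p.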
